A study of Mus musculus with 12 samples.

Results

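The genes described here encode the AP-1, NF-kB and NFAT transcription factors, the inhibitors of NF-kB, and the immediate early and Krüppel-like factors that respond to the same stimuli. They were taken by gene symbol alone from the lists of genes that differed between tdTomato- and tdTomato+ group 2 innate lymphoid cells (ILC2s) of the lung. The symbols had to begin with Fos, Jun, Atf, Batf, Maf, Nfkb, Egr, Nr4a, Ier, Nfat or Klf (with a number after it where the family is numbered), or to be Rel, Rela, Relb, Tnfaip3, Myc or Bhlhe40, and 35 of the 3439 genes in the 2 lists qualified. All 35 were in the list of 2906 genes that were lower in tdTomato+ ILC2s and 0 were in the list of 533 genes that were higher. The 2 lists are the authors' own selection, and 84.5% of all the genes in them were on the lower side, so the shared direction of the 35 members is read against that share.

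Both populations came from mice of the genotype TIGIT-Cre-ERT2:Rosa26-LSL-tdTomato that had received papain, a protease that provokes allergic airway inflammation, and tamoxifen, which lets the Cre recombinase act. Cre-ERT2 was expressed from the Tigit locus, so tdTomato stayed on in any cell that had expressed Tigit, an inhibitory receptor, while tamoxifen was present, whether or not that cell still expressed it when sorted. The mice used for RNA were male, and their age was not given in the sources used here. The labels list 4 RNA libraries of tdTomato- and 4 of tdTomato+ ILC2s, each from a small number of sorted cells, and 2 chromatin accessibility libraries of each population that were not analysed here.

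AP-1 factors are dimers of FOS, JUN and related leucine zipper proteins. NF-kB subunits wait in the cytoplasm bound to IkB proteins until a kinase complex marks those inhibitors for destruction, and NFAT proteins enter the nucleus once calcineurin, a phosphatase switched on by calcium, has dephosphorylated them. In ILC2s, IL-33 signals through its receptor ST2 to NF-kB and to kinases that act on AP-1, leukotrienes raise calcium and activate NFAT, and these routes meet at the genes for IL-5 and IL-13. Immediate early genes such as Fos, Egr1 and Nr4a1 are transcribed within minutes of a stimulus without new protein being made, and the same stimuli induce inhibitors such as Nfkbia and Tnfaip3 that end the response.

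Each gene has 1 level in the tables, the authors' average log2 CPM (read counts scaled to the size of each library) over libraries, and the tables hold no level of a single library or population. The levels below are therefore averages across both populations without an SD, the depth of the libraries and the spread between them are unknown, and the order of the levels could not be tested. Which of the RNA libraries entered the average is not known. In sorted populations measured in bulk, fewer cells that express a gene and less of its RNA per cell cannot be told apart. CPM is also a share of each library. The paper reports that non-coding transcripts, such as major satellite repeats, outweighed protein-coding ones in tdTomato+ ILC2s. A lower CPM of a coding gene can go with such a shift in the makeup of a library, and this was not tested. The lowest average in the tables was 5.00, so genes of lower abundance could not be members.

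Of 76 protein-coding genes in the mouse annotation with a qualifying symbol, 35 (46.1%) were in the list of lower genes, against 13.2% of all 22028 annotated protein-coding genes. The other 41 were in neither list, and the tables do not show whether they were too low to be measured or did not differ. The 13.2% counts every annotated gene, also those too low in these cells to be listed. In the fixed lists of related genes described below, the share was 43.8% to 74.1%, so a high share is not particular to the members. Coverage was uneven among the families. Both other JUN proteins were listed beside Jun, and of the FOS proteins Fosl1 was missing while Fos, Fosb and Fosl2 were listed. All 5 NF-kB subunits, Nfkb1, Nfkb2, Rel, Rela and Relb, were listed. Of the genes for IkB proteins, Nfkbia, Nfkbid, Nfkbie and Nfkbiz were listed and Nfkbib, a cytoplasmic inhibitor like Nfkbia, was not. Of the NFAT genes Nfatc4 was missing. In contrast, Egr1 was listed without Egr2, Egr3 or Egr4, Nr4a1 and Nr4a3 without Nr4a2, Atf4 without Atf1, Atf2, Atf3, Atf5, Atf6 or Atf7, and Maf without Maff, Mafg or Mafk. None of Batf, Batf2 and Batf3, AP-1 family members that act with IRF proteins in lymphocytes, was listed. Among the Krüppel-like factors, Klf3, Klf4, Klf6, Klf7, Klf10 and Klf13 were listed. Klf1, Klf5, Klf8, Klf9, Klf11, Klf12, Klf14, Klf15, Klf16 and Klf17 were not, and neither was Klf2, which promotes lymphocyte quiescence and egress.

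Marker genes of ILC2s and of other cell types were looked up in the lists, which bears on the labelled cell type only in part, since a marker at an equal level in both populations would be in neither list at any abundance. All 12 ILC2 markers examined, which include the transcription factor Gata3, the ST2 gene Il1rl1 and the cytokine genes Il5 and Il13, were listed as lower, with average log2 CPM from 6.27 for Il13 to 9.98 for Il1rl1. Of 30 markers of T cells, B cells, NK cells, macrophages, granulocytes, epithelium and endothelium, 1 was listed, the T cell receptor component Cd3g at 6.12, also as lower. The ILC2 markers were thus listed on the same side as the members, and what that has to do with the members' listing was not tested.

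The promoters of 4 members are shown because they hold a match to a motif that a member protein family binds. They are the 250 bases before the RefSeq transcription start on GRCm38.p6, each read 5′ to 3′ on the strand of its gene, with the matches in capitals. In Nfkbia and Nfkb2 the capitals mark the NF-kB motif GGGANTTTC or its reverse complement, in Nfkbie the AP-1 motif TGANTCA, and in Klf13 the KLF motif CCACNCCC.
Nfkbia (chr12:55492648-55492897, - strand): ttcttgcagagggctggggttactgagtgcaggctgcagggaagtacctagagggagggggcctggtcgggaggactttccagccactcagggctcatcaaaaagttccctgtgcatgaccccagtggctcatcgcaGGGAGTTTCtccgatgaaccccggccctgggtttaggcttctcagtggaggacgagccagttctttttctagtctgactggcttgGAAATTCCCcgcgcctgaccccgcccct
Nfkb2 (chr19:46305445-46305694, + strand): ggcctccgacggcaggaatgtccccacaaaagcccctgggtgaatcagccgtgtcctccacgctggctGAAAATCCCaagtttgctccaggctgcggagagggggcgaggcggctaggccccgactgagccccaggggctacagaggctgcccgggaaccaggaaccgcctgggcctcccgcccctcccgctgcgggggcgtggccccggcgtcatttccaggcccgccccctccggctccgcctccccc
Nfkbie (chr17:45555450-45555699, + strand): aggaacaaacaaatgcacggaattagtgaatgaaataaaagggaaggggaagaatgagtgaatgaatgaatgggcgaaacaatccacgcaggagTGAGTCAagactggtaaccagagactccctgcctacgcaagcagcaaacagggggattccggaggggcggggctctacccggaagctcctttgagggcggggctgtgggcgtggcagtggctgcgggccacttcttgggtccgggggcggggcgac
Klf13 (chr7:63938916-63939165, - strand): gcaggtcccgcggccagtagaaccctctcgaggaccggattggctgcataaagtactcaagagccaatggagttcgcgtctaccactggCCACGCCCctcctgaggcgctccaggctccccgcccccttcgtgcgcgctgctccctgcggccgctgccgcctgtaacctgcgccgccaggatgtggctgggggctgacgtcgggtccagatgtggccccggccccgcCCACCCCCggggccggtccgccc
Nfkbia and Nfkb2 encode an inhibitor and a subunit of NF-kB, and Klf13 encodes a Krüppel-like factor, so in these 3 genes the motif is that of the gene's own system. A match is a run of letters and is no evidence of binding in these cells.

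The members as a group were somewhat more abundant than the other genes of the lists. Their median average log2 CPM was 6.67, against 6.39 for all genes of the lower list, 5.57 for those of the higher list and 6.23 for all listed genes. Of the 35 members, 22 lay above the median of the lower list and 7 were among its highest 10%. Because a long transcript yields more fragments than a short one, the levels of different genes are set against each other below as CPM per kb of annotated exon, computed from the authors' average, and the average log2 CPM, which is not per length, is given beside it. On that scale the members' median was 22.3 CPM per kb, against 15.4 in the lower list and 4.54 in the higher list, and 23 of the 35 lay above the median of the lower list.

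**Figure D1:**
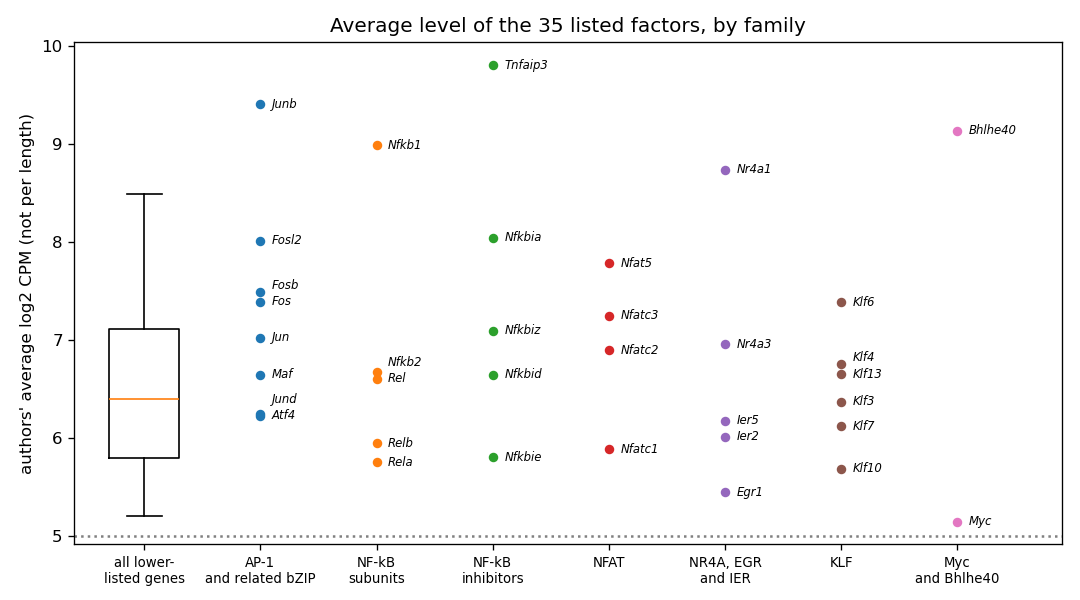
Authors' average log2 CPM of each of the 35 members, on the vertical axis, by family on the horizontal axis, with 1 point per gene and no error bar because the tables give no spread. The box gives the median and quartiles of all 2906 lower genes with whiskers from the 5th to the 95th percentile, the dotted line marks the lowest average in the tables, and the values, which are not per length, run from 5.15 for Myc to 9.81 for Tnfaip3.

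The members above 100 CPM per kb were 5 genes of 4 families. Junb, a JUN protein that restrains or replaces Jun in dimers and supports type 2 cytokine transcription in lymphocytes, was the highest at 295 CPM per kb (average log2 CPM 9.41), rank 46 in the lower list. It lies at chr8:84974484-84978718 on the - strand of GRCm38, and its chosen transcript has a single exon. Nfkbia, the IkBα gene (chr12:55489410-55492647, - strand), followed at 164 CPM per kb (8.04). Tnfaip3, which encodes the ubiquitin-editing enzyme A20 that shuts off signalling upstream of NF-kB, had 124 CPM per kb (9.81) and lies at chr10:19000910-19015657 on the - strand. Nr4a1, an orphan nuclear receptor induced by antigen receptor and cytokine signals (chr15:101254269-101274795, + strand), had 122 CPM per kb (8.74). Bhlhe40, a basic helix-loop-helix repressor that lymphocytes need for normal cytokine output (chr6:108660629-108666925, + strand), had 119.7 CPM per kb (9.14). The highest members were thus 1 AP-1 protein, 2 brakes on NF-kB and 2 further activation-induced regulators.

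Among the other AP-1 and related genes, Fos, the partner that most stabilises JUN dimers on DNA, had 71.2 CPM per kb. Jund was at 45.4 and Jun, the founding JUN protein, at 40.8 CPM per kb, so Junb exceeded both by a wide margin in the average. Fosb and Fosl2, which replace Fos in later dimers, were at 28.8 and 26.7 CPM per kb, and Atf4, the main effector of the integrated stress response, was at 31.8. Maf, which drives Il10 and other cytokine genes in T cells, was the lowest of this family at 12.2 CPM per kb. The family's median was 36.3 CPM per kb.

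The listed NF-kB inhibitors had a higher median than the subunits they hold or limit. The 5 listed inhibitors had a median of 42.6 CPM per kb and the 5 subunits one of 17.5. Among the subunits, Nfkb1, whose product p105 is cut to the DNA-binding p50, was highest at 42.1 CPM per kb, and Nfkb2, which gives p52 of the alternative pathway, had 22.3. The 3 subunits with an activation domain were lower, with Rela at 17.5, Relb at 15.9 and Rel at 13.0 CPM per kb. Below Nfkbia and Tnfaip3, the nuclear IkB proteins, which bind p50 in the nucleus and modify its output, were at 42.6 for Nfkbid and 27.2 for Nfkbiz, and Nfkbie, a cytoplasmic IkB, was at 18.3 CPM per kb. The ranges of the 2 groups overlapped, since Nfkb1 was above Nfkbiz and Nfkbie.

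The NFAT genes were long and low per kb. Nfatc3 was at 13.0, Nfatc2 at 11.3 and Nfatc1 at 7.91 CPM per kb, and these 3 are controlled by calcineurin. Nfat5, which responds to osmotic stress and lacks the calcineurin site, was at 12.0 CPM per kb. Their average log2 CPM, which is not per length, was between 5.89 for Nfatc1 and 7.78 for Nfat5.

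In the group of immediate early genes, Ier2 and Ier5, 2 small nuclear proteins of the early growth response, were at 42.4 and 22.1 CPM per kb. Nr4a3, a relative of Nr4a1, was at 20.7 CPM per kb, well under Nr4a1. Egr1, a zinc finger factor induced through serum response factor, was at 9.72 CPM per kb with an average log2 CPM of 5.45. Myc, the growth and metabolism regulator, had 13.0 CPM per kb, and its average log2 CPM of 5.15 was just above the lowest average in the tables.

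Of the Krüppel-like factors, Klf6 was at 38.1 and Klf4, which restrains lymphocyte proliferation, at 35.4 CPM per kb. The other 4 were lower, with Klf13 at 13.3, Klf10, a target of TGF-β signalling, at 12.3, Klf7 at 8.55 and Klf3, a transcriptional repressor, at 7.34 CPM per kb. Klf3, Nfatc1 and Klf7 were the 3 lowest members on this scale.

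The order of the members depended on the length used, because exonic length includes untranslated parts that differ widely among them. Per kb of RefSeq coding sequence Junb was still first at 655 CPM, but Bhlhe40 came second at 456, ahead of Tnfaip3 at 367 and Nfkbia at 279. Fosl2, with its long untranslated parts, stood at 264 CPM per coding kb, above Nr4a1 at 223 and Fos at 147. Maf was no longer the lowest of its family, with 90.0 against 73.8 for Jund and 71.3 for Atf4. Rel at 55.0 was above Nfkb2 at 37.8, and Klf13 at 115, Klf3 at 79.7 and Klf7 at 76.5 were above Klf4 at 74.3. The order within a family is therefore given above for exonic length only.

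**Figure D2:**
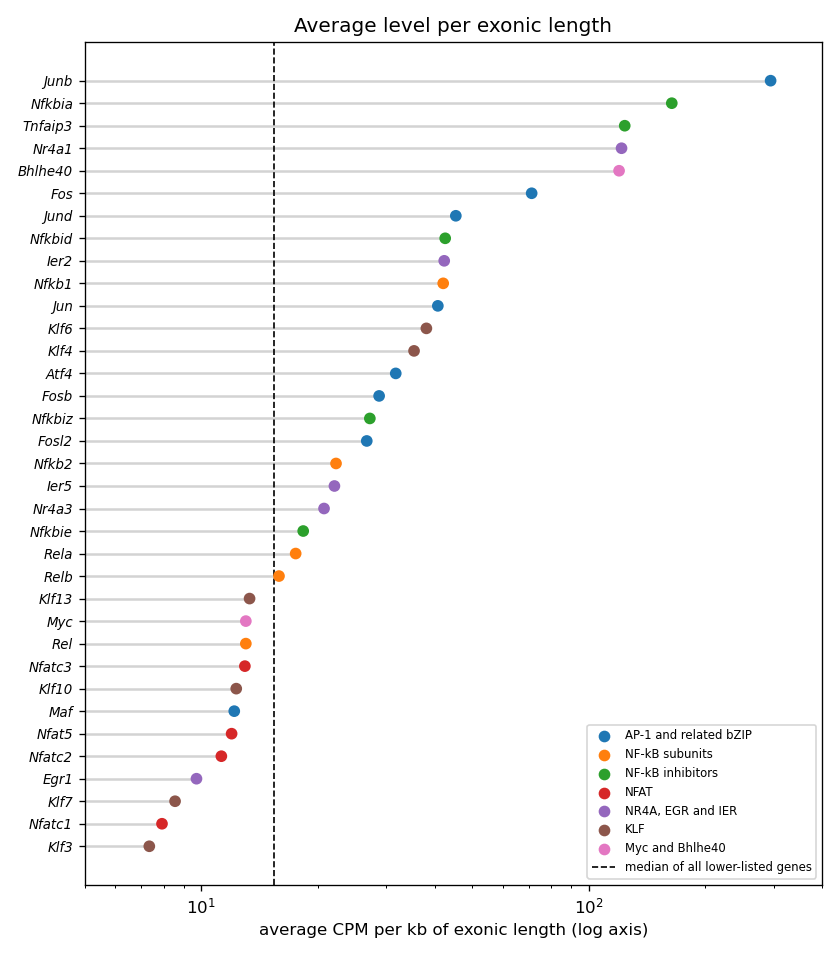
CPM per kb of annotated exon for the 35 members on a log axis, computed from the authors' average level, with 1 point per gene coloured by family. Junb at 295 and Nfkbia at 164 stand highest, Klf3 at 7.34 lowest, and the dashed line is the lower list's median of 15.4.

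The members also differed from the rest of the lower list in gene structure, which the choice by symbol did not use. They had a median of 5 exons, against 11 in the lower list, 20 in the higher list and 7 over all annotated protein-coding genes. The median gene span was 9.24 kb in the members, 28.6 kb in the lower list, 147 kb in the higher list and 17.3 kb over all. A transcript of a single exon was found for 5 of the 35 members (14.3%), Jun, Junb, Jund, Ier2 and Ier5, against 1.90% of the lower list, 0.792% of the higher list and 7.16% of all annotated genes. Exonic length, the union of the exons of all transcripts of a gene, was not much shorter. Its median was 4.48 kb, against 5.19 kb in the lower list and 3.49 kb over all annotated protein-coding genes. The families were unlike in this respect, since AP-1 genes had a median span of 3.81 kb and NFAT genes one of 96.5 kb.

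The 3′ UTRs were examined for AU-rich elements, which mark many immediate early transcripts for rapid decay by proteins of the ZFP36 family. The pentamer ATTTA occurred at a median of 1.79 per kb of 3′ UTR in the members, 1.49 in the lower list, 2.03 in the higher list and 1.12 over all annotated genes. Of the 35 members, 22 were above the median of the lower list, but the members' median was below that of the higher list. The nonamer TTATTTATT was present in 5 members (14.3%), Tnfaip3, Nfkbia, Fosl2, Fos and Rel, against 6.46% of the lower list, 14.2% of the higher list and 6.91% of all genes, so the element is not particular to the members. These 5 are 2 FOS proteins, 2 inhibitors and 1 subunit of NF-kB. The largest number of pentamers was in Nfat5, with 26 in a 3′ UTR of 8.37 kb, followed by Klf7 with 18 and Rel with 12. The 6 members Bhlhe40, Atf4, Ier2, Relb, Nfkbie and Rela had 0. The median AT content of the 3′ UTRs was 56.7% in the members, 56.5% in the lower list and 60.9% in the higher list.

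**Figure D3:**
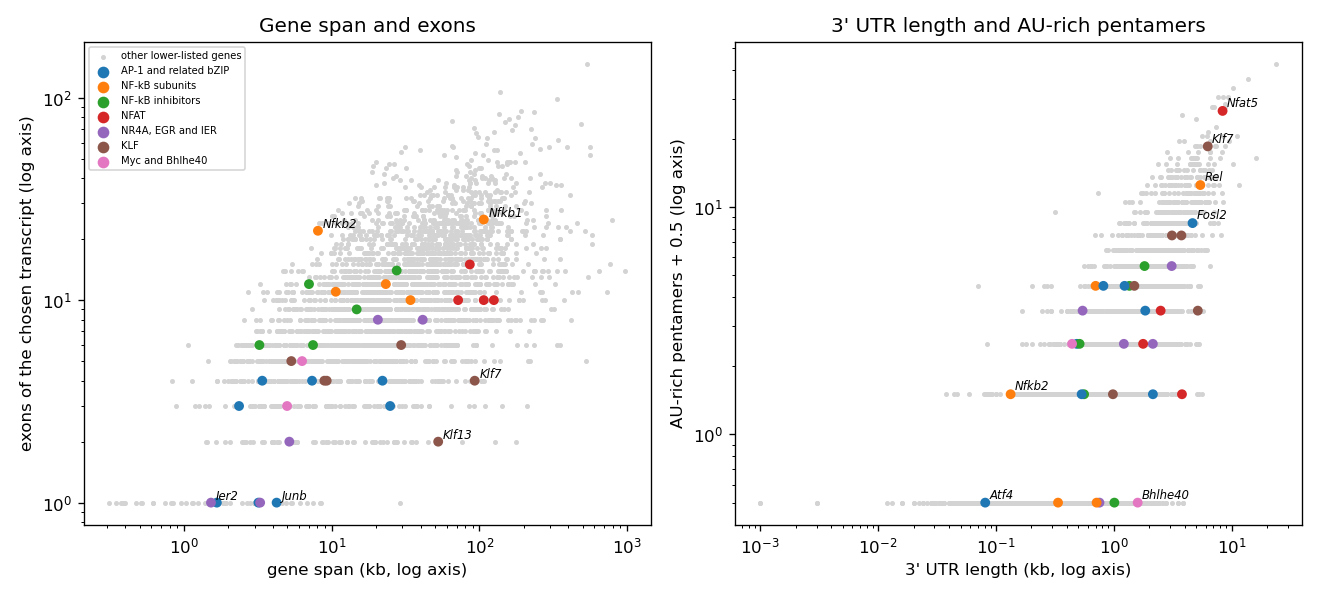
Left, exons of the chosen transcript against gene span in kb on log axes; right, ATTTA pentamers plus 0.5 against 3′ UTR length in kb on log axes, with 1 point per member coloured by family and the other genes of the lower list in grey. Jun, Junb, Jund, Ier2 and Ier5 lie at 1 exon, and Nfat5 has the most pentamers, 26.

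Promoter entries from 250 bases before to 50 bases after a RefSeq start were at hand for 25 members, which had 32 entries of 32851 in all. Bhlhe40, Nfkb1, Ier2, Nfkbiz, Maf, Klf10, Relb, Myc, Egr1 and Nfatc1 had none. In a search for 9 motifs on both strands, 17 of the 32 entries held at least 1. Only full matches to the stated letters were counted, so a related site that differs from them counts as absent. An entry without a match can therefore still hold a variant site. Entries of 1 gene can overlap, and intervals on these shares (exact Clopper-Pearson, 95%) cover counting error only. The entries of the members were richer in G and C, with a median of 64.7%, than all entries at 52.7%, and close to those of the lower list at 62.3%.

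The NF-kB motif was found in 3 of the 32 entries (9.38%, interval 1.98 to 25.0%), against 1.11% of all entries and 0.924% of the entries of the lower list. The 3 entries belong to Nfkbia and Nfkb2. In Nfkbia the motif began at -113 and -28 bases from the start, as shown in the sequence above. In Nfkb2 it began at -182 bases from one start, and a further match at 10 bases after that start is the same site as one at -225 from another start, so the 3 entries represent 2 genes and the count rests on few sites.

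The AP-1 motif was found in 3 entries (9.38%), those of Nfkb2, Nfkbie and Tnfaip3, against 7.81% of all entries and 4.66% of the lower list. The sequence of Nfkbie shows it at -156 bases from the start. None of the FOS and JUN genes with an entry held a full match to it. The Jund entry, chr8:70697489-70697788, lies before the GENCODE gene start at 70698949 and does not cover it. The related CRE motif TGACGTCA was found in 1 entry, that of Nfkbid (3.13%, against 1.79% of all and 2.97% of the lower list). All 4 genes with an AP-1 or CRE match encode subunits or inhibitors of NF-kB. The matches are few, and whether they are concentrated in these genes was not tested.

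The EGR motif GCGNGGGCG was in 6 entries (18.8%, interval 7.21 to 36.4%) of Fosb, Fosl2, Klf3, Klf4, Nfkb2 and Nr4a1, against 5.55% of all entries and 12.1% of those of the lower list. This motif is made almost wholly of G and C, and the share in the lower list, though not that in all entries, lies within the interval. The KLF motif was in 7 entries of 6 genes (21.9%), Klf13, Klf7, Nfkb2, Nfkbid, Nfkbie and Rel, against 17.6% of all and 24.2% of the lower list. In Klf13 it occurred at -161 and -23 bases from the start, as the sequence shows. EGR and KLF matches can overlap, as they do in Nfkb2.

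The E-box CACGTG, which Myc and Bhlhe40 proteins bind, was in the entries of Klf4, Klf6, Nfatc3 and Tnfaip3 (12.5%, against 7.15% of all and 10.2% of the lower list). The NBRE AAAGGTCA of the NR4A receptors, the NFAT core TGGAAAA and the CArG box of serum response factor were in 0 of the 32 entries, for which the interval reaches 10.9%. Their shares of all entries were 1.51%, 6.73% and 1.63%, so 0 was within the counting error of each.

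**Figure D4:**
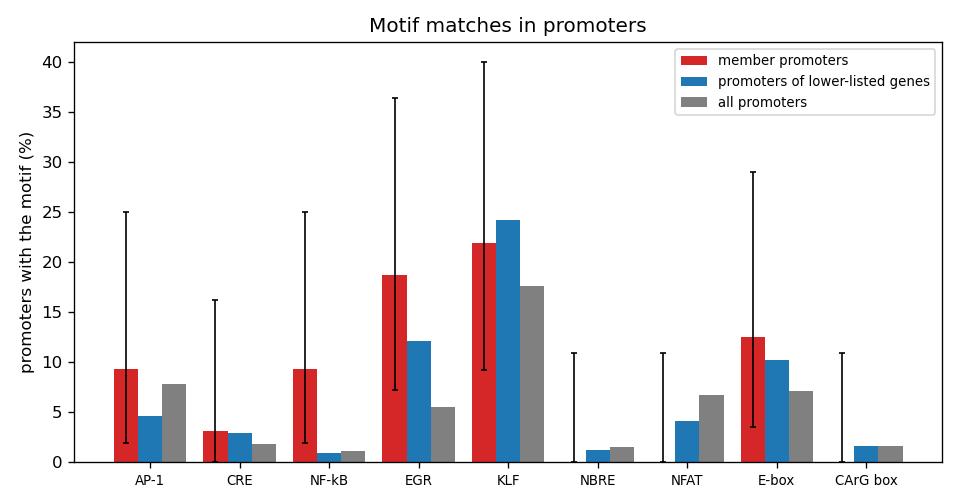
Share of promoter entries, in percent, that hold each of the 9 motifs, as bars for the 32 entries of members (lines give exact 95% intervals), all 32851 entries and the entries of the lower list. The members' NF-kB share of 9.38%, from 3 entries of only 2 genes, stands above the 1.11% of all entries. The AP-1, KLF and E-box shares have intervals that include the shares of the other sets.

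**Figure D5:**
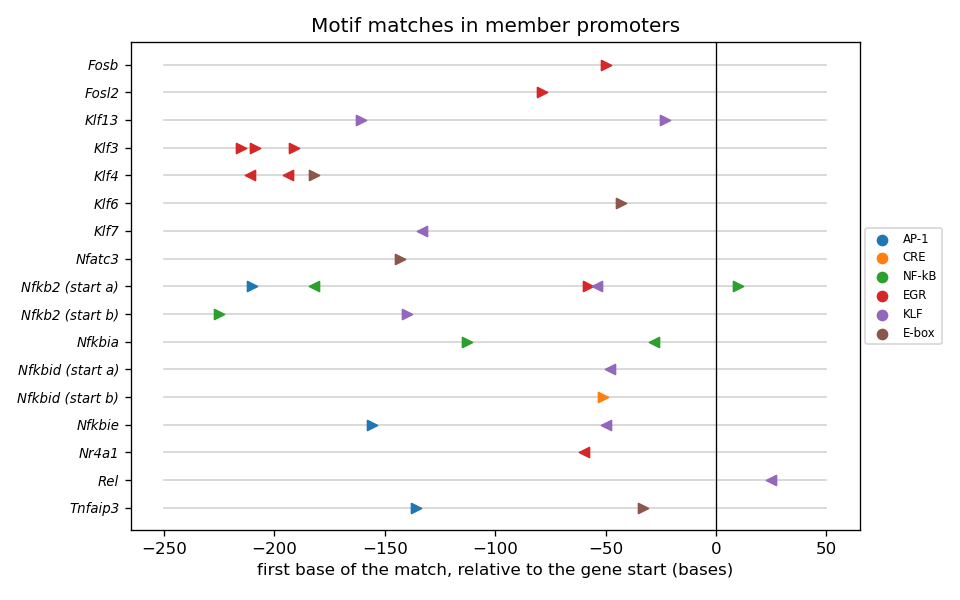
First base of each motif match in the 17 member promoter entries that hold one, in bases from the RefSeq start on the strand of the gene, with 1 row per entry, 1 colour per motif and triangles that point right or left for the strand of the match. Nfkbia has its NF-kB matches at -113 and -28, and Nfkb2 holds matches to 4 motifs.

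The genes that act upstream of the members, or beside them, were examined as fixed lists, and the background is again 13.2% of annotated genes in the lower list and 84.5% of listed genes on the lower side. Of 31 genes of NF-kB signalling, 17 were listed, all as lower. They include the 3 parts of the IkB kinase, Chuk, Ikbkb and Ikbkg, at 11.8, 7.46 and 5.51 CPM per kb, and Malt1, a protease and scaffold of antigen receptor signalling, at 7.51. The highest of the list were Tnip1, an A20 partner, at 33.1 CPM per kb and Birc3, a ubiquitin ligase that limits the alternative pathway, at 31.6.

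Of 27 other immediate early and feedback genes, 20 were listed, all as lower, the highest share of the lists at 74.1%. The RNA decay factors Zfp36l1, Zfp36l2 and Zfp36, which bind AU-rich elements, were at 149, 139 and 74.3 CPM per kb. Rgs2 and Rgs1, which damp G protein signals, were at 149 and 89.9 CPM per kb, and Dusp1, a phosphatase that inactivates the kinases upstream of AP-1, was at 67.0. Zfp36l1, Rgs2 and Zfp36l2 thus had higher average levels per exonic kb than Nr4a1.

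Of 22 genes of the calcineurin and NFAT route, 14 were listed, all as lower. The calcineurin subunits Ppp3ca and Ppp3r1 were at 11.6 and 17.3 CPM per kb, and Ppp3cb was also listed. The calmodulin genes were higher, led by Calm2 at 74.8 CPM per kb, and the calcium sensors Stim1 and Stim2, which open the plasma membrane channel, were at 10.2 and 14.0.

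Of 16 genes in a list of other leucine zipper genes, 7 were in the tables, all as lower, led by Cebpb at 32.3 CPM per kb. Creb1 and Crem also belong to the immediate early list, and Cebpz, despite its symbol, encodes a CCAAT-binding protein without a leucine zipper. Nfil3, a factor needed for innate lymphoid development, was at 19.6 CPM per kb. Of 9 genes of the Myc network, 4 were listed, all as lower, the repressors Mxd1, Mxd4, Mnt and Mga. Mxd1 was at 15.3 CPM per kb (average log2 CPM 6.76) and Myc itself at 13.0 (5.15). No gene of the 5 lists was in the list of higher genes.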

How the data were processed

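Lung ILC2s were sorted by tdTomato, and RNA was turned into libraries by a stranded method for few cells. Per the study's methods, the authors checked reads with FASTP, aligned them with STAR to GRCm39, counted them per Ensembl gene with featureCounts and compared the populations with edgeR. The labels name mm10 instead. The authors deposited 2 tables of genes that differed between the populations, with an average log2 CPM per gene. The tables also hold the fold changes, test statistics and p-values of the authors' own comparison, which were not used, so no difference between the populations was computed or tested here. The number of columns of single libraries left unused was 0, and the depth of the libraries is unknown.

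Members were matched by symbol. The members and lists were chosen with earlier results of these data known, and gene structure, AU-rich elements and the printed promoters were chosen after the tables were seen. Every member is named, and the 5 highest and 3 lowest per kb, those with a motif of their own family and that nearest the lowest average are described further. The average log2 CPM was raised to a power of 2 and divided by the union exon length of GENCODE M21 (GRCm38), matched by Ensembl identifier for 2905 of 2906 lower genes, 532 of 533 higher genes and all 35 members. The deposited average, made by the authors with edgeR, includes a prior count, so CPM values are approximate. GRCm38 coordinates come from that annotation, not from the tables. Exons and 3′ UTRs were those of the protein-coding transcript with the longest coding sequence. Promoters and coding lengths came from RefSeq (GRCm38.p6). The motif search was tested on simulated sequences. Python 3.11.15, numpy 2.4.6, pandas 2.3.3, scipy 1.17.1 and matplotlib 3.10.9 were used. The alternatives were other gene sets as background, another length, the mean, and narrower promoter windows or a single strand.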

Additional observations from a re-analysis of the deposited data

How the results depend on the processing

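All 35 members stayed in the list when only protein-coding entries were taken. Without Ier2 and Ier5, which are not named as transcription factors or NF-kB inhibitors, 33 remained. The members' median average log2 CPM of 6.67 became 6.65 without Tnfaip3, Junb and Bhlhe40 and 6.98 as a mean, and that of all listed genes, 6.23, became 6.39 with the lower list alone and 6.43 as a mean. Per kb of coding sequence the members' median was 76.5 and that of all listed genes 43.6, in place of 22.3 and 13.7. On the strand of the gene alone the KLF motif was in 6.25% of the members' promoter entries in place of 21.9%, and in 8.42% of all entries in place of 17.6%. The members' KLF value was the 1 of 18 alternatives for the members' shares that fell outside the interval of the main share. Of 27 alternatives for the shares of all entries, 22 fell outside theirs.

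No paired analysis was possible because each gene has 1 average over libraries, and for the same reason no replicate was left out. Genes under the lowest average of 5.00 are beyond the reach of these tables.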

Other observations

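Fosb and Relb lie 296 kb apart on chromosome 7, and Ier2 and Junb lie 312 kb apart on chromosome 8. Whether such distances are short for this number of genes was not tested. Across the 35 members, the average CPM and the exonic length had a Spearman correlation of 0.22, given as a description over genes that share the same libraries.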
